A study of Mus musculus with 12 samples.

Results

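The genes described here encode the proteases, the proton pump and the main membrane proteins of the lysosome. They were chosen by name: the cathepsins (Cts followed by 1 letter), the subunits of the vacuolar proton pump (symbols that open with Atp6v0 or Atp6v1) and the lysosome-associated membrane proteins (Lamp followed by a number). Of 25094 genes listed in both tables, 46 matched: 18 cathepsins, 13 genes of the V1 sector, 9 of the V0 sector, 4 LAMP genes and 2 genes that match by name without being subunits. A mean of at least 0.5 RPKM (reads scaled by transcript length and library size) in at least 1 of 4 groups left 31 to describe: 11 cathepsins, 9 V1 genes, 8 V0 genes, Lamp1, Lamp2 and Atp6v0c-ps2, a pseudogene that shares its position with Atp6v0c. RNA carrying a poly(A) tail came from the gastrocnemius, a calf muscle, of male wild-type mice. The groups were the right, denervated legs and the left legs, labelled healthy, of C57BL/6, and the same of BALB/c, with 3 libraries in each. The right sciatic nerve had been cut 2 weeks earlier and its ends were turned back and stitched to nearby muscle. A sham operation is mentioned in the protocol without naming the legs that had it. The labels give no ages and do not tell whether each library is another mouse. The p-values therefore reflect variation among these libraries alone, and it may be technical.

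A lysosome is the acid compartment in which a cell breaks down proteins, lipids and sugars delivered by endocytosis or autophagy. The V-ATPase acidifies it: the V1 sector in the cytosol splits ATP and turns a central axle, and this drives a ring of proteolipids in the V0 sector of the membrane that carries protons inward. Cathepsins are made as inactive precursors, mature in the acid interior and cut proteins there, and the LAMPs line the membrane with a dense sugar coat. In muscle the autophagy and lysosome system works beside the proteasome in removing fibre proteins during wasting, and cathepsin L is one of the genes long known to be induced in wasting rodent muscle. Macrophages, osteoclasts and fibroblasts carry many lysosomes and use some cathepsins and subunits that muscle fibres hardly make.

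Scaling totals were 18132600 to 19282900 reads per library. The median tested gene was shifted upward in the right legs, by 0.523 log2 units in C57BL/6 and by 0.377 in BALB/c. Each change is therefore given as deposited and again after rescaling by median-of-ratios factors, which brings the median gene to 0.021 in C57BL/6 and 0.016 in BALB/c. A log2 change is the right legs minus the left legs in log2(RPKM + 0.5), ± SE, and understates the change of low genes. It was tested with limma, adjusted over all tested genes by Benjamini-Hochberg, and called where the adjusted p was below 0.05. The 4 genes used to check denervation, Chrng, Chrna1, Myog and Gadd45a, rose in both strains. The muscle fibre markers summed to 75743 to 82358 RPKM in the right and 125304 to 134393 RPKM in the left legs of C57BL/6, and to 61151 to 91326 RPKM in the right and 93817 to 121993 RPKM in the left legs of BALB/c. Of these 8 markers 6 fell in C57BL/6 and 3 in BALB/c as deposited (8.56% and 7.67% of all tested genes), while Mb and Des rose in both strains. Means are followed by the SD over 3 libraries, and positions are in mm9.

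Cut off from their nerve, the muscles of both strains carried, as deposited, more RNA of most described lysosomal genes than the healthy legs. The median tested gene was shifted upward as well, and fewer members were called higher after rescaling. The genes of each class did not move as 1 block. The proteases Ctsd and Ctsl, the V1 subunits Atp6v1a, Atp6v1e1, Atp6v1h and Atp6v1f and the V0 subunits Atp6v0e and Atp6v0d1 rose in both strains under both scalings. Lamp1, Atp6v0a1, Atp6v0e2 and Atp6v1b2, parts of the same membrane and the same pump, were called lower in C57BL/6 after rescaling. Of these, Atp6v1b2 was called lower in BALB/c too. Atp6v0c had rescaled changes of 0.06 in C57BL/6 and 0.04 in BALB/c, and neither was called. As deposited, 27 of 31 members rose and 1 fell in C57BL/6, where 63.6% of all tested genes were called higher and 8.56% lower. In BALB/c 23 rose and 0 fell, where 42.5% of all tested genes were called higher and 7.67% lower. For the members called lower in BALB/c, the count was also 0 by limma-voom on recovered reads and at an unadjusted p under 0.05. After rescaling 16 rose and 8 fell in C57BL/6 (28.2% and 26.4% of all tested genes), and 14 rose and 2 fell in BALB/c (21.8% and 19.0%). Of the 31 members, 29 had all right libraries above all left libraries in C57BL/6 and 24 in BALB/c, and 1, Ctsc, had them below in each strain. Among all tested genes 66.2% stood above and 9.57% below without overlap in C57BL/6, and 48.1% above and 10.4% below in BALB/c. Atp6v0d2 is in these counts, and the level limit fixed its direction. Over the other 30 members 26 rose in C57BL/6 and 22 in BALB/c as deposited. After rescaling 15 of them rose in C57BL/6 and 13 in BALB/c, and 28 stood above without overlap in C57BL/6 and 23 in BALB/c. The median rescaled change of the 30 was 0.26 in C57BL/6 and 0.32 in BALB/c. Less RNA of a lysosomal gene per cell and fewer cells that make it cannot be told apart in whole muscle.

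The rule used only the level, and 30 of 31 members pass it on their left-leg level. The exception is Atp6v0d2, which passes only through the right legs. Just inside the limit lie Ctso and Atp6v0d2, with their highest group means at 1.55 and 1.67 RPKM, and just outside it lie Atp6v0a4 at 0.374 and Ctsw at 0.347 RPKM.

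**Figure D1:**
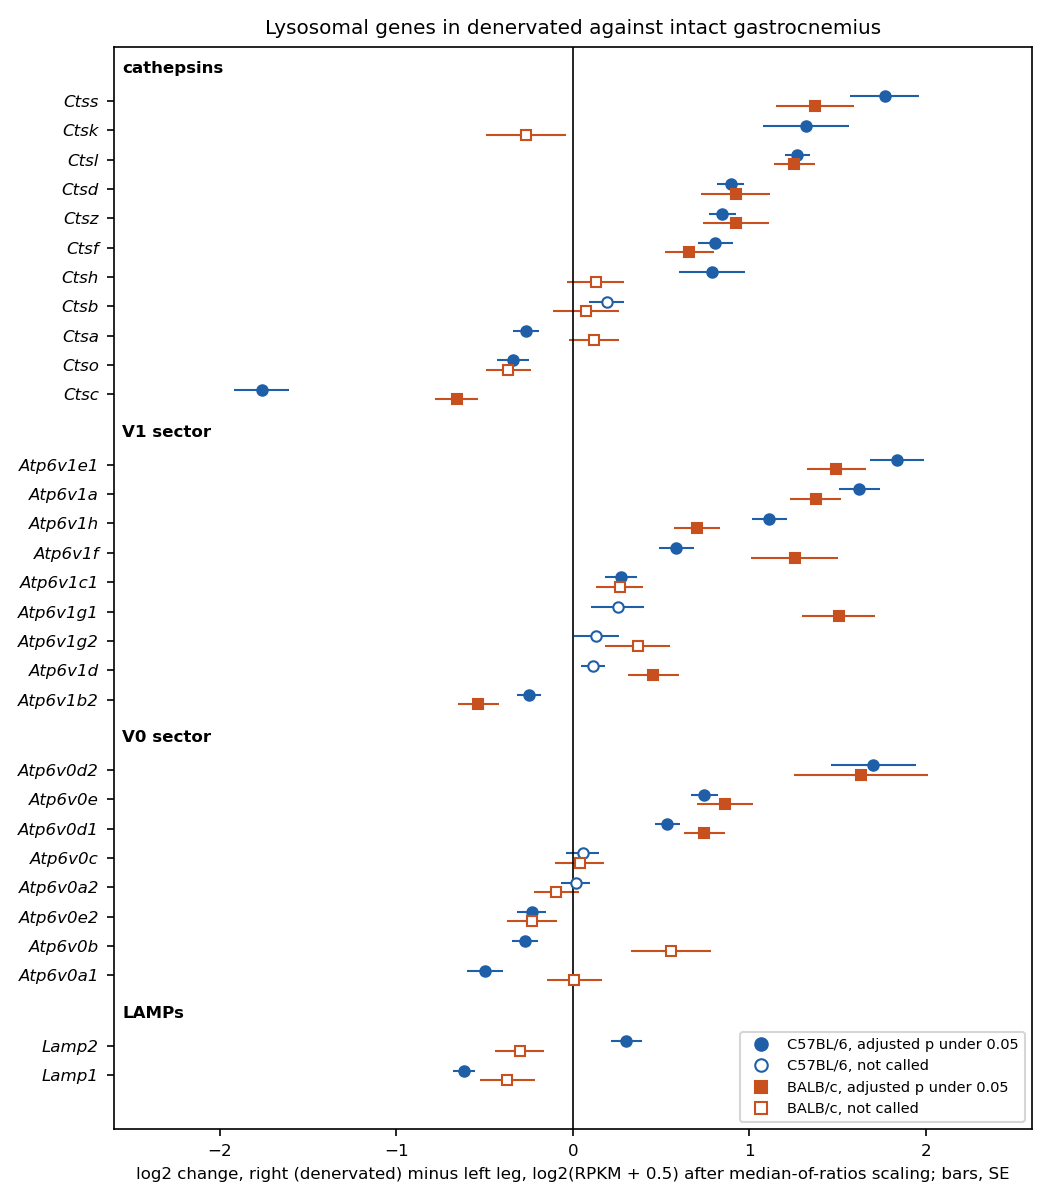
Rescaled log2 change, right minus left leg, of 30 members (all but the pseudogene), by class and in order of the change in C57BL/6. Circles are C57BL/6 and squares BALB/c, bars are the SE, and filled symbols had an adjusted p under 0.05, which for Atp6v0d2 is no finding. Cathepsins run from 1.77 for Ctss to -1.76 for Ctsc in C57BL/6, and every class holds members on both sides of 0.

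Promoters of a subset of these genes carry the letters CACGTG, the core of the element bound by TFEB and its relatives, transcription factors known for driving lysosomal genes. Windows of 300 bases, from 250 before the start site to 50 after it, were taken from RefSeq (GRCm38.p6) and matched 22 of the 31 members by symbol. The members that matched none are Atp6v0a2, Atp6v0c-ps2, Atp6v0d2, Atp6v1b2, Atp6v1c1, Atp6v1g1, Atp6v1h, Ctsb and Ctsh. The core, which reads the same on both strands, occurred in 9 of 22 members (40.9%) and in 8.09% of 27025 genes. With a T directly before and an A directly after it, it occurred in 5 members (22.7%) and in 1.12% of genes. The element is known from lysosomal genes such as these, so a higher share among them is a description and no test. The 9 members with a core are Atp6v0b, Atp6v0d1, Atp6v0e, Atp6v1a, Ctsa, Ctsd, Ctsf, Ctsl and Lamp1. After rescaling 6 of them rose and 3 fell in C57BL/6 (median change 0.75), and 6 rose and 0 fell in BALB/c (median 0.74). Of the 13 members without one, 6 rose and 4 fell in C57BL/6 (median 0.13), and 5 rose and 1 fell in BALB/c (median 0.04). In C57BL/6 both sets hold genes that rose and genes that fell.

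Windows of 3 pairs of genes are printed 5′ to 3′, with each core in capitals. Atp6v1a and Atp6v1e1 had the largest rescaled V1 rises in C57BL/6, and of these Atp6v1a has a core. Atp6v0e and Atp6v0e2 are paralogs that differed in their changes, and Ctsd and Lamp1 both carry cores and differed in theirs. In GRCm38.p6 they lie at chr16:44139210-44139509, minus strand (Atp6v1a), chr6:120822649-120822948, minus strand (Atp6v1e1), chr17:26676146-26676445, plus strand (Atp6v0e), chr6:48537319-48537618, plus strand (Atp6v0e2), chr7:142387778-142388077, minus strand (Ctsd) and chr8:13158911-13159210, plus strand (Lamp1).
Atp6v1a: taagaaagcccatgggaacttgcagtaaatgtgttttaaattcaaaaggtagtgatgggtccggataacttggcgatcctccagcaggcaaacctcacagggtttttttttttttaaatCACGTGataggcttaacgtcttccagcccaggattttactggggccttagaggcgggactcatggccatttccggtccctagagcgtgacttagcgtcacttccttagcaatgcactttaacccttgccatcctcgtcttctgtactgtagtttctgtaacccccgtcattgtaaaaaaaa
Atp6v1e1: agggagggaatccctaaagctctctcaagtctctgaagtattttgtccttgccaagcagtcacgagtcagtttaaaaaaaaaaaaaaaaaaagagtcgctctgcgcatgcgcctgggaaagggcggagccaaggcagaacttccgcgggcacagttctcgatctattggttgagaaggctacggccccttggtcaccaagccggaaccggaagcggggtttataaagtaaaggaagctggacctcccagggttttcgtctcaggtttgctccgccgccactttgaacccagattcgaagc
Atp6v0e: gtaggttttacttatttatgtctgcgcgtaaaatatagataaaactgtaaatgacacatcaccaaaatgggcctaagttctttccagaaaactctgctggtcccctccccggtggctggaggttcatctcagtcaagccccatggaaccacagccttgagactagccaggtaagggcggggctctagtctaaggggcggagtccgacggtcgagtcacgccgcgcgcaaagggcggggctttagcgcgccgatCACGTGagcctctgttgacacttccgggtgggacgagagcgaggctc
Atp6v0e2: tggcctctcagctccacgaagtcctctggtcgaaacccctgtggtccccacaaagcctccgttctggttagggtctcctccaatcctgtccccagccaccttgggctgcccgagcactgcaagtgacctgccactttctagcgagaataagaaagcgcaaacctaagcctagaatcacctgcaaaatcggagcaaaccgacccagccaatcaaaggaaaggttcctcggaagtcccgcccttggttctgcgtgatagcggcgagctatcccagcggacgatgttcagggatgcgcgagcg
Ctsd: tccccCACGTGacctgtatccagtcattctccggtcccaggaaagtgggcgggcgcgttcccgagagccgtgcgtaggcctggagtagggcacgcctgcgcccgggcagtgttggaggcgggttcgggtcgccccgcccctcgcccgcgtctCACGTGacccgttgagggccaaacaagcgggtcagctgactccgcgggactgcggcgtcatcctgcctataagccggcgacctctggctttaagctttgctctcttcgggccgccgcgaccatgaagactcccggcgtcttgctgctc
Lamp1: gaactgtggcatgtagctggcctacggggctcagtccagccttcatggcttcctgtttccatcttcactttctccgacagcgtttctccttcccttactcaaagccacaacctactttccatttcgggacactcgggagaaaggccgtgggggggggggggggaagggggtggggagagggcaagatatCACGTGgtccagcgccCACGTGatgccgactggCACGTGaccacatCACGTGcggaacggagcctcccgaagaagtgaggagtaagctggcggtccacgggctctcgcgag
Counted from the start site, whose first base is 1, the core lies at -131 to -126 in Atp6v1a and at 4 to 9 in Atp6v0e. In Ctsd it lies at -245 to -240 and -98 to -93, and Lamp1 has 4 cores, at -61, -45, -28 and -15. Lamp1, with 4 cores, fell by 0.62 in C57BL/6 after rescaling, where Atp6v1e1, with 0, rose by 1.84. Lamp1 was not called there as deposited, nor in BALB/c under either scaling. These 2 genes are examples picked from the printed pairs. Tfeb itself, the gene of the factor, fell in both strains (rescaled log2 change -1.59 ± 0.08, adjusted p = 3.75e-06 in C57BL/6, and rescaled log2 change -0.91 ± 0.18, adjusted p = 0.0053 in BALB/c). A match of letters does not show that a factor binds there, and protein was not measured. The part of TFEB in these changes was not tested.

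Of the cathepsins, the acid proteases of the lysosome, 9 of 11 described genes rose as deposited and 1 fell in C57BL/6, and 8 rose and 0 fell in BALB/c. After rescaling the counts were 7 higher and 3 lower in C57BL/6 and 5 higher and 1 lower in BALB/c. Of all tested genes 63.6% were higher as deposited in C57BL/6 and 42.5% in BALB/c, and 28.2% and 21.8% after rescaling. Lower were 8.56% and 7.67% as deposited, and 26.4% and 19.0% after rescaling. Ctss, Ctsl, Ctsd, Ctsz and Ctsf rose in both strains under both scalings, by 1.77 to 0.66 after rescaling, and Ctsc was the one cathepsin that fell in both strains after rescaling. Summed over the class, cathepsin RNA stood at 975 ± 36.5 RPKM in the right legs, against 349.5 ± 15.0 RPKM in the left legs of C57BL/6, a ratio of 2.79. In BALB/c the sum was 929 ± 63.3 RPKM in the right legs, against 387 ± 18.4 RPKM in the left legs, a ratio of 2.40.

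Ctsd (chromosome 7, 149561815 to 149573732), the main aspartic protease of lysosomes, had the highest level of all members. It had 697, 695 and 652 RPKM in the right legs of C57BL/6, against 217, 216 and 235 RPKM in the left legs. In BALB/c Ctsd had 558, 639 and 639.5 RPKM in the right legs, against 227, 223 and 221 RPKM in the left legs. The legs did not overlap in either strain. Its level was 3.06 times that of the left legs in C57BL/6 (log2 change 1.61 ± 0.08, adjusted p = 3.48e-06, and 0.89 ± 0.08 with adjusted p = 6.01e-05 after rescaling) and 2.74 times in BALB/c (log2 change 1.45 ± 0.15, adjusted p = 0.000169, and 0.92 ± 0.20 with adjusted p = 0.00784 after rescaling). Of all cathepsin RNA, Ctsd made up 69.9% ± 1.65 in the right legs, against 63.6% ± 1.01 in the left legs of C57BL/6. In BALB/c its share was 65.8% ± 1.40 in the right legs, against 57.8% ± 3.02 in the left legs. The most abundant cathepsin thus took a larger share of the class in every right library than in any left library of its strain.

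Ctsl (chromosome 13, 64463198 to 64471828), the cysteine protease that is a classic gene of muscle wasting, had a larger change than Ctsd. Its values were 69.0, 77.2 and 72.1 RPKM in the right legs of C57BL/6, against 17.2, 18.4 and 18.6 RPKM in the left legs. In BALB/c Ctsl had 66.3, 58.0 and 60.0 RPKM in the right legs, against 16.3, 19.2 and 17.5 RPKM in the left legs, and the legs did not overlap in either strain. It was 4.03 times as high in the right legs in C57BL/6 (log2 change 1.98 ± 0.07, adjusted p = 1.33e-06, and 1.27 ± 0.07 with adjusted p = 6.48e-06 after rescaling) and 3.48 times in BALB/c (log2 change 1.77 ± 0.13, adjusted p = 4.92e-05, and 1.25 ± 0.12 with adjusted p = 0.000246 after rescaling). As a share of cathepsin RNA, Ctsl held 7.46% ± 0.314 in the right legs, against 5.17% ± 0.131 in the left legs of C57BL/6. In BALB/c Ctsl held 6.66% ± 0.948 in the right legs, against 4.55% ± 0.185 in the left legs. Ctsb, the other broad cysteine protease of lysosomes, had a smaller change. It had 96.6 ± 11.7 RPKM in the right legs, against 51.1 ± 4.02 RPKM in the left legs of C57BL/6 and 96.4 ± 15.0 RPKM in the right legs, against 63.4 ± 6.63 RPKM in the left legs of BALB/c. Ctsb was called higher in both strains as deposited. After rescaling it was called in neither (rescaled log2 change 0.19 ± 0.10, adjusted p = 0.144, in C57BL/6, and rescaled log2 change 0.07 ± 0.19, adjusted p = 0.774, in BALB/c). Ctsb held 9.90% ± 1.01 in the right legs, against 14.6% ± 0.784 in the left legs of C57BL/6. In BALB/c Ctsb held 10.3% ± 0.961 in the right legs, against 16.3% ± 0.916 in the left legs. In C57BL/6 the rescaled Ctsb value was called without right 1 (adjusted p = 0.0428), and in BALB/c the deposited call was lost without left 1 or left 3 (adjusted p = 0.0523 and 0.0615).

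Ctsz, a carboxypeptidase, and Ctsf, a cysteine protease that cuts the invariant chain in macrophages, rose with them. Ctsz had 46.0 ± 1.39 RPKM in the right legs, against 15.4 ± 1.20 RPKM in the left legs of C57BL/6 (log2 change 1.55 ± 0.08, adjusted p = 3.79e-06, and 0.85 ± 0.08 with adjusted p = 7.53e-05 after rescaling). In BALB/c Ctsz had 51.2 ± 8.67 RPKM in the right legs, against 18.6 ± 3.20 RPKM in the left legs (log2 change 1.44 ± 0.18, adjusted p = 0.000401, and 0.93 ± 0.19 with adjusted p = 0.00659 after rescaling). Ctsf had 25.0 ± 1.80 RPKM in the right legs, against 8.50 ± 0.812 RPKM in the left legs of C57BL/6 (log2 change 1.50 ± 0.09, adjusted p = 9.46e-06, and 0.81 ± 0.10 with adjusted p = 0.000346 after rescaling). In BALB/c Ctsf had 25.3 ± 0.553 RPKM in the right legs, against 11.1 ± 2.14 RPKM in the left legs (log2 change 1.17 ± 0.15, adjusted p = 0.000525, and 0.66 ± 0.14 with adjusted p = 0.00756 after rescaling). Neither gene had overlapping legs in either strain.

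Ctsa, a serine carboxypeptidase that also protects beta-galactosidase and neuraminidase, and Ctso had changes in C57BL/6 whose sign differed between the scalings. Ctsa had 34.6 ± 2.72 RPKM in the right legs, against 25.3 ± 1.21 RPKM in the left legs of C57BL/6, where it was called higher as deposited and lower after rescaling (log2 change 0.45 ± 0.08, adjusted p = 0.00166, and -0.26 ± 0.07 with adjusted p = 0.0187 after rescaling). In BALB/c Ctsa had 57.8 ± 3.45 RPKM in the right legs, against 37.0 ± 3.66 RPKM in the left legs, called higher as deposited only (log2 change 0.64 ± 0.13, adjusted p = 0.00408, and 0.12 ± 0.14 with adjusted p = 0.525 after rescaling). Ctso, listed at 1.20 ± 0.0325 RPKM in the right and 1.02 ± 0.0454 RPKM in the left legs of C57BL/6, was called lower there after rescaling only (log2 change 0.15 ± 0.09, adjusted p = 0.146, and -0.34 ± 0.09 with adjusted p = 0.015 after rescaling), and was not called in BALB/c. In BALB/c the signs of Ctso and Ctsk differed between the scalings, and neither gene was called under either. The rescaled call of Ctsa in C57BL/6 was lost without left 2, left 3 or right 3 (adjusted p = 0.0565, 0.0553 and 0.0798).

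**Figure D2:**
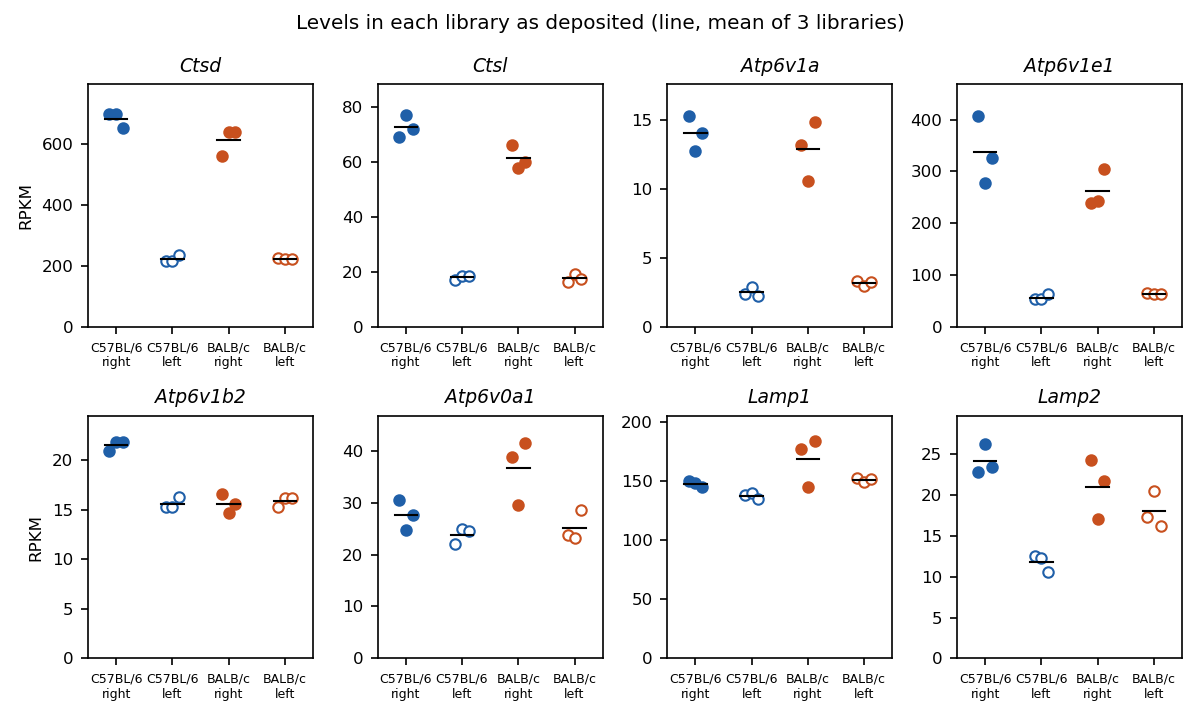
RPKM as deposited in each library for 8 members, with right legs filled, left legs open and a line at the mean of 3 libraries. Ctsd, Ctsl, Atp6v1a and Atp6v1e1 have all right libraries above all left libraries in both strains, while Lamp1 lies between 135 and 184 RPKM in all 12 libraries.

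Ctss and Ctsk, cathepsins tied to immune and connective tissue cells, averaged under 1 RPKM in the left legs of C57BL/6 and rose there under both scalings. Ctss, the protease that trims the invariant chain in antigen-presenting cells, had 2.98, 5.97 and 4.52 RPKM in the right legs of C57BL/6, against 0.508, 0.514 and 0.472 RPKM in the left legs. In BALB/c Ctss had 7.40, 6.68 and 7.38 RPKM in the right legs, against 1.34, 2.78 and 1.20 RPKM in the left legs. The legs did not overlap, and it was 9.02 times as high in the right legs in C57BL/6 (log2 change 2.28 ± 0.21, adjusted p = 5.23e-05, and 1.77 ± 0.20 with adjusted p = 0.000219 after rescaling) and 4.04 times in BALB/c (log2 change 1.82 ± 0.25, adjusted p = 0.000679, and 1.37 ± 0.22 with adjusted p = 0.00252 after rescaling). As deposited, 15 of 16 macrophage and monocyte markers rose in C57BL/6 and 12 in BALB/c (63.6% and 42.5% of all tested genes). After rescaling 15 rose in C57BL/6 and 10 in BALB/c (28.2% and 21.8%), and 1 of these markers fell in each strain under both scalings. Their sum ran from 104 to 204 RPKM in the right and 19.2 to 30.3 RPKM in the left legs of C57BL/6, and from 206 to 331 RPKM in the right and 74.6 to 139 RPKM in the left legs of BALB/c, with no marker at 0 in every library. Right library 2 of C57BL/6 was the highest of its group for Ctss, Ctsk, Ctsh and the macrophage sum, and also for the fibroblast and neutrophil marker sums. In BALB/c right library 2 had the highest macrophage sum of its group, 331 RPKM, and the lowest Ctss, 6.68 RPKM. The part of macrophages in these changes was not tested.

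Ctsk, the collagen-cutting cathepsin of osteoclasts, which fibroblasts also make, had 2.03, 4.99 and 3.48 RPKM in the right legs of C57BL/6, against 0.469, 0.611 and 0.641 RPKM in the left legs. It rose 6.10-fold there (log2 change 1.83 ± 0.26, adjusted p = 0.000476, and 1.32 ± 0.24 with adjusted p = 0.00278 after rescaling). In BALB/c Ctsk had 6.75, 7.39 and 4.45 RPKM in the right legs, against 4.01, 6.70 and 5.10 RPKM in the left legs. Those legs overlapped, and it was not called (log2 change 0.21 ± 0.24, adjusted p = 0.482, and -0.26 ± 0.23 with adjusted p = 0.383 after rescaling). The 10 fibroblast markers summed to 253 to 505 RPKM in the right and 85.0 to 140.5 RPKM in the left legs of C57BL/6, and to 636 to 823 RPKM in the right and 614 to 962 RPKM in the left legs of BALB/c, with none at 0 throughout. As deposited 10 of these markers rose and 0 fell in C57BL/6, and 5 rose and 2 fell in BALB/c. Rescaled, 7 rose and 0 fell in C57BL/6 (28.2% and 26.4% of all tested genes), and 1 rose and 3 fell in BALB/c (21.8% and 19.0%). The rescaled BALB/c counts are near these shares and are no result about the list. The part of fibroblasts in the Ctsk values was not tested. The osteoclast list, 5 genes, summed to 1.11 to 1.69 RPKM in the right and 0.483 to 0.700 RPKM in the left legs of C57BL/6, and to 2.63 to 4.49 RPKM in the right and 0.626 to 6.12 RPKM in the left legs of BALB/c.

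Ctsh, an aminopeptidase, had 6.98 ± 2.13 RPKM in the right legs, against 2.22 ± 0.162 RPKM in the left legs of C57BL/6 (log2 change 1.42 ± 0.20, adjusted p = 0.000428, and 0.79 ± 0.19 with adjusted p = 0.00879 after rescaling). In BALB/c Ctsh had 6.87 ± 0.712 RPKM in the right legs, against 4.37 ± 0.923 RPKM in the left legs, called higher as deposited only (log2 change 0.61 ± 0.17, adjusted p = 0.0202, and 0.13 ± 0.16 with adjusted p = 0.548 after rescaling), and that call was lost without left 1, left 3 or right 1 (adjusted p = 0.0713, 0.0794 and 0.059).

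Ctsc, the dipeptidyl peptidase that activates the serine proteases of neutrophils and cytotoxic lymphocytes, went the other way. It had 2.03, 1.77 and 1.23 RPKM in the right legs of C57BL/6, against 4.10, 5.09 and 3.88 RPKM in the left legs. In BALB/c Ctsc had 2.74, 2.32 and 2.82 RPKM in the right legs, against 3.07, 3.28 and 2.98 RPKM in the left legs. All right libraries stood below all left libraries in both strains. It fell in C57BL/6 under both scalings (log2 change -1.17 ± 0.16, adjusted p = 0.000442, and -1.76 ± 0.16 with adjusted p = 6.77e-05 after rescaling), and in BALB/c it was called lower only after rescaling (log2 change -0.21 ± 0.15, adjusted p = 0.266, and -0.66 ± 0.12 with adjusted p = 0.00454 after rescaling). Of 7 listed neutrophil markers 2 passed the filter, S100a8 and S100a9. As deposited both rose in C57BL/6 and S100a8 in BALB/c, and after rescaling S100a8 alone was called higher in each strain. The 7 genes summed to 106 to 285 RPKM in the right and 0 to 0.652 RPKM in the left legs of C57BL/6, with Ly6g and Camp at 0, and to 39.7 to 340.2 RPKM in the right and 0.660 to 1.24 RPKM in the left legs of BALB/c. S100a8 alone made up 106 to 283 RPKM of the right-leg sums of C57BL/6 and 39.3 to 338 RPKM of those of BALB/c. The tables list different Ctsc transcripts for the strains, NM_001311790 for C57BL/6 and NM_009982 for BALB/c, and Ctsh likewise has NM_007801 and NM_001312649, so their RPKM values rest on different exons.

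**Figure D3:**
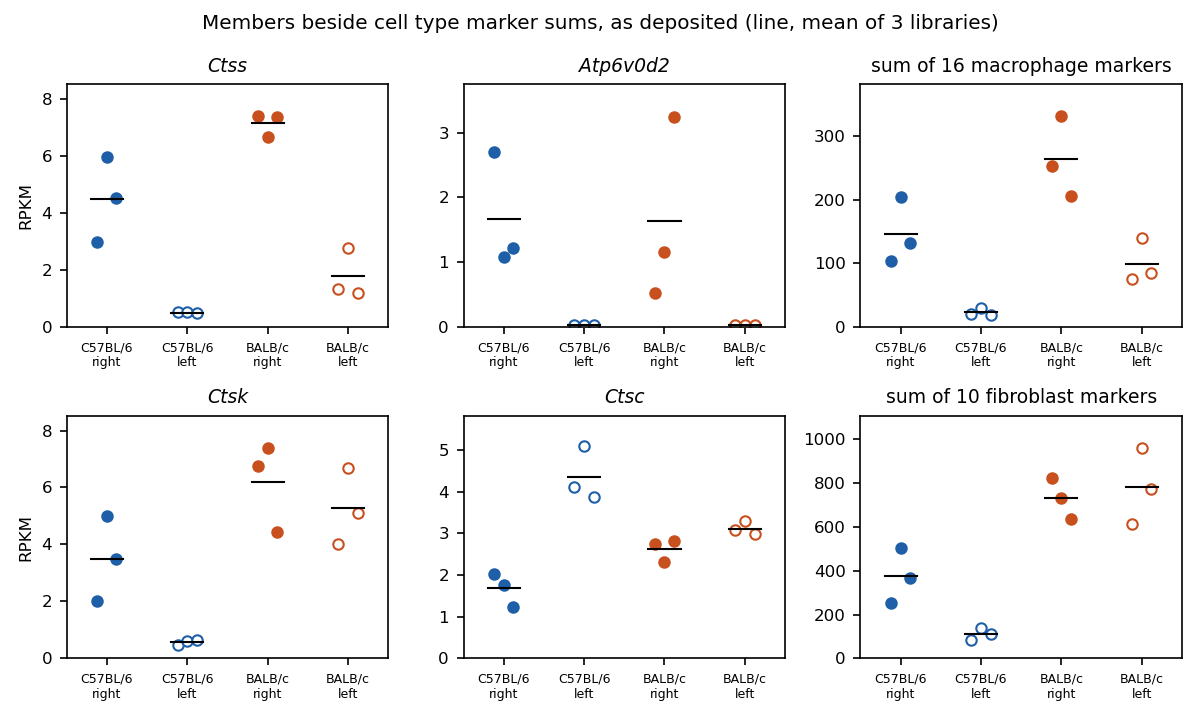
RPKM as deposited in each library for Ctss, Ctsk, Atp6v0d2 and Ctsc beside the summed RPKM of 16 macrophage and 10 fibroblast markers, with right legs filled, left legs open and a line at the mean. Fibroblast sums separate the legs in C57BL/6 and overlap in BALB/c, as the Ctsk values do.

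The V1 sector, the ATP-splitting part of the pump that sits in the cytosol, stood higher in the right legs in nearly all of its subunits as deposited. All 9 described subunit genes rose in C57BL/6 and 8 of 9 in BALB/c. After rescaling 5 rose and 1 fell in C57BL/6 and 6 rose and 1 fell in BALB/c, and the median change was 0.27 in C57BL/6 and 0.70 in BALB/c. Among all tested genes 63.6% rose as deposited in C57BL/6 and 42.5% in BALB/c. After rescaling 28.2% rose and 26.4% fell in C57BL/6, and 21.8% rose and 19.0% fell in BALB/c. The sum of the V1 genes was 705 ± 93.3 RPKM in the right legs, against 231 ± 11.95 RPKM in the left legs of C57BL/6 (ratio 3.05), and 654 ± 70.7 RPKM in the right legs, against 206 ± 7.37 RPKM in the left legs of BALB/c (ratio 3.17). A change in sum is not a change of every subunit: the rescaled values ran from 1.84 for Atp6v1e1 to -0.25 for Atp6v1b2 in C57BL/6.

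Atp6v1a (chromosome 16, 44085517 to 44139372) encodes the catalytic subunit A, which binds and splits ATP. It had 15.3, 12.7 and 14.0 RPKM in the right legs of C57BL/6, against 2.38, 2.87 and 2.25 RPKM in the left legs. In BALB/c Atp6v1a had 13.1, 10.5 and 14.9 RPKM in the right legs, against 3.29, 2.95 and 3.21 RPKM in the left legs. The legs were far apart in both strains, at 5.60 times the left level in C57BL/6 (log2 change 2.27 ± 0.11, adjusted p = 3.48e-06, and 1.62 ± 0.12 with adjusted p = 2.45e-05 after rescaling) and 4.08 times in BALB/c (log2 change 1.86 ± 0.16, adjusted p = 9.29e-05, and 1.37 ± 0.15 with adjusted p = 0.000403 after rescaling). Atp6v1b2 (chromosome 8, 71612635 to 71637616) encodes subunit B, which alternates with A in the same ring. It had 20.9, 21.8 and 21.9 RPKM in the right legs of C57BL/6, against 15.3, 15.3 and 16.3 RPKM in the left legs. In BALB/c Atp6v1b2 had 16.5, 14.7 and 15.5 RPKM in the right legs, against 15.3, 16.1 and 16.1 RPKM in the left legs, and the legs overlapped. It was called higher in C57BL/6 as deposited and lower after rescaling (log2 change 0.45 ± 0.06, adjusted p = 0.000481, and -0.25 ± 0.07 with adjusted p = 0.0156 after rescaling), and in BALB/c it was called lower after rescaling only (log2 change -0.03 ± 0.12, adjusted p = 0.874, and -0.53 ± 0.12 with adjusted p = 0.0089 after rescaling). The 2 partners of 1 ring thus had rescaled changes of opposite sign in both strains. No reads of Atp6v1b1, the kidney paralog of B, were found in any library.

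The stalks that hold the ring in place are built of subunits E and G. Atp6v1e1 (chromosome 6, 120745262 to 120772716), subunit E, had the highest level of the pump genes and the largest V1 rise in C57BL/6. It had 407, 278 and 326 RPKM in the right legs of C57BL/6, against 53.0, 53.7 and 62.6 RPKM in the left legs. In BALB/c Atp6v1e1 had 239, 243 and 305 RPKM in the right legs, against 66.0, 63.0 and 63.6 RPKM in the left legs. The right legs stood at 5.97 times the left level in C57BL/6 (log2 change 2.55 ± 0.14, adjusted p = 6.56e-06, and 1.84 ± 0.15 with adjusted p = 4.88e-05 after rescaling) and 4.09 times in BALB/c (log2 change 2.01 ± 0.14, adjusted p = 4.95e-05, and 1.49 ± 0.17 with adjusted p = 0.000492 after rescaling). Atp6v1g1 (chromosome 4, 63205799 to 63211735), the common form of its partner G, had 98.3, 68.3 and 68.2 RPKM in the right legs of C57BL/6, against 36.7, 40.8 and 40.1 RPKM in the left legs. In BALB/c Atp6v1g1 had 87.2, 94.0 and 120.1 RPKM in the right legs, against 25.5, 19.8 and 27.6 RPKM in the left legs. The legs did not overlap in either strain, but after rescaling only BALB/c was called (log2 change 0.97 ± 0.15, adjusted p = 0.000639, and 0.25 ± 0.15 with adjusted p = 0.186 after rescaling, in C57BL/6, and log2 change 2.02 ± 0.18, adjusted p = 0.000102, and 1.51 ± 0.21 with adjusted p = 0.00123 after rescaling, in BALB/c). Atp6v1g2, the form of G best known from neurons, had 3.87 ± 0.187 RPKM in the right legs, against 2.12 ± 0.376 RPKM in the left legs of C57BL/6 and 4.04 ± 0.541 RPKM in the right legs, against 2.12 ± 0.605 RPKM in the left legs of BALB/c. Its calls as higher were not kept after rescaling (adjusted p = 0.41 in C57BL/6 and 0.148 in BALB/c).

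The remaining V1 genes encode the axle and the regulators. Atp6v1h, the regulatory subunit H, which is needed for the assembled pump to work, had 13.4 ± 0.585 RPKM in the right legs, against 3.56 ± 0.417 RPKM in the left legs of C57BL/6 (log2 change 1.78 ± 0.09, adjusted p = 5.04e-06, and 1.11 ± 0.10 with adjusted p = 7.38e-05 after rescaling). In BALB/c Atp6v1h had 10.4 ± 0.485 RPKM in the right legs, against 4.33 ± 0.837 RPKM in the left legs (log2 change 1.19 ± 0.16, adjusted p = 0.000582, and 0.70 ± 0.13 with adjusted p = 0.00473 after rescaling). Atp6v1f, subunit F of the axle, had 127 ± 15.7 RPKM in the right legs, against 50.9 ± 2.87 RPKM in the left legs of C57BL/6 (log2 change 1.30 ± 0.10, adjusted p = 2.62e-05, and 0.59 ± 0.10 with adjusted p = 0.0018 after rescaling). In BALB/c Atp6v1f had 154 ± 37.6 RPKM in the right legs, against 43.7 ± 3.67 RPKM in the left legs (log2 change 1.78 ± 0.19, adjusted p = 0.000213, and 1.26 ± 0.25 with adjusted p = 0.00577 after rescaling). Atp6v1h and Atp6v1f rose in both strains under both scalings. Atp6v1d, the other axle subunit, had 92.9 ± 1.26 RPKM in the right legs, against 52.1 ± 2.64 RPKM in the left legs of C57BL/6 and 80.4 ± 3.44 RPKM in the right legs, against 40.6 ± 1.48 RPKM in the left legs of BALB/c. After rescaling Atp6v1d was called in BALB/c (rescaled log2 change 0.46 ± 0.15, adjusted p = 0.039) but not in C57BL/6 (rescaled log2 change 0.11 ± 0.07, adjusted p = 0.188). That BALB/c call was lost without left 2, left 3, right 1, right 2 or right 3 (adjusted p = 0.103, 0.12, 0.0534, 0.065 and 0.106). Atp6v1c1, the subunit that joins V1 to V0, had 16.8 ± 1.55 RPKM in the right legs, against 8.33 ± 0.489 RPKM in the left legs of C57BL/6 and 13.2 ± 0.447 RPKM in the right legs, against 7.63 ± 1.18 RPKM in the left legs of BALB/c. Its rescaled call in C57BL/6 (rescaled log2 change 0.27 ± 0.09, adjusted p = 0.0331) was lost without left 1, left 3, right 1 or right 2 (adjusted p = 0.0958, 0.0899, 0.0835 and 0.0626).

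The V0 sector, the part of the pump that lies in the membrane, moved less than V1 as a sum. Its genes summed to 223 ± 11.4 RPKM in the right legs, against 136 ± 4.31 RPKM in the left legs of C57BL/6 (ratio 1.64), and 246 ± 10.8 RPKM in the right legs, against 129 ± 9.65 RPKM in the left legs of BALB/c (ratio 1.90). As deposited 7 of 8 genes rose in C57BL/6 and 6 of 8 in BALB/c. After rescaling 3 rose and 3 fell in C57BL/6, with a median of 0.04, and 3 rose and 0 fell in BALB/c, with a median of 0.30. Without Atp6v0d2, whose rise the level limit fixed, 6 of 7 rose in C57BL/6 and 5 of 7 in BALB/c as deposited. After rescaling 2 of the 7 rose and 3 fell in C57BL/6 (median 0.02), and 2 rose and 0 fell in BALB/c (median 0.04). Of all tested genes 63.6% rose as deposited in C57BL/6 and 42.5% in BALB/c. After rescaling 28.2% rose and 26.4% fell in C57BL/6, and 21.8% rose and 19.0% fell in BALB/c. The rescaled counts of rises among the 7 genes are near these shares and are no result about the sector. Atp6v0e and Atp6v0d1 are the 2 that rose in both strains under both scalings. No test set the V1 sector against the V0 sector.

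Subunit d couples the axle to the ring. Atp6v0d1, its common form, had 39.6 ± 1.30 RPKM in the right legs, against 16.5 ± 0.876 RPKM in the left legs of C57BL/6 (log2 change 1.24 ± 0.07, adjusted p = 6.19e-06, and 0.54 ± 0.07 with adjusted p = 0.000506 after rescaling). In BALB/c Atp6v0d1 had 41.4 ± 1.78 RPKM in the right legs, against 17.0 ± 0.900 RPKM in the left legs (log2 change 1.26 ± 0.12, adjusted p = 0.00012, and 0.75 ± 0.12 with adjusted p = 0.00214 after rescaling). Atp6v0d2 (chromosome 4, 19803985 to 19849713), the form known from osteoclasts, macrophages and kidney, had the largest fold change of the described genes. It had 129, 51 and 58 reads in the right legs of C57BL/6, against 1, 1 and 1 in the left legs, and 25, 53 and 156 reads in the right legs of BALB/c, against 1, 1 and 1 in the left legs. In RPKM these are 2.71, 1.08 and 1.22 RPKM in the right legs and 0.0210, 0.0210 and 0.0210 RPKM in the left legs of C57BL/6. In BALB/c the levels were 0.522, 1.16 and 3.25 RPKM in the right legs, against 0.0220, 0.0220 and 0.0220 RPKM in the left legs. The right legs had 78.6 times the reads of the left legs in C57BL/6, with an exact 95% interval of 26.6 to 384 for counting error only. In BALB/c Atp6v0d2 had 75.3 times the reads, with an interval of 25.5 to 368. The level limit took this gene in only through the right legs. Its higher level there, its rank by fold change and the 2 intervals are therefore a description, and no test is given. The right libraries spread widely. The highest of C57BL/6, library 1, and the highest of BALB/c, library 3, had the lowest macrophage sums of their groups, and the part of macrophages was not tested. Even so Atp6v0d2 made up a small part of subunit d, 3.99% ± 1.96 in the right legs, against 0.128% ± 0.00700 in the left legs of C57BL/6, and 3.69% ± 2.98 in the right legs, against 0.129% ± 0.00700 in the left legs of BALB/c. The list of 4 kidney and epididymis genes, the home of several pump paralogs, summed to 0.023 to 0.034 RPKM in the right and 0 to 0.035 RPKM in the left legs of C57BL/6, and to 0.034 to 0.402 RPKM in the right and 0.024 to 0.038 RPKM in the left legs of BALB/c, with Foxi1 at 0 in both strains and Aqp2 at 0 in C57BL/6.

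Subunit e is a small membrane protein with 2 genes, and the balance between them differed between the legs. Atp6v0e (chromosome 17, 26813341 to 26836591) had 37.8, 36.7 and 33.4 RPKM in the right legs of C57BL/6, against 12.3, 12.5 and 13.8 RPKM in the left legs (log2 change 1.45 ± 0.08, adjusted p = 5.85e-06, and 0.75 ± 0.08 with adjusted p = 0.000167 after rescaling). In BALB/c Atp6v0e had 35.1, 35.9 and 39.6 RPKM in the right legs, against 14.4, 12.3 and 15.1 RPKM in the left legs (log2 change 1.38 ± 0.13, adjusted p = 0.000136, and 0.86 ± 0.16 with adjusted p = 0.00436 after rescaling). Atp6v0e2 (chromosome 6, 48487568 to 48491799) had 38.5, 34.5 and 32.5 RPKM in the right legs of C57BL/6, against 24.1, 26.0 and 25.1 RPKM in the left legs. In BALB/c Atp6v0e2 had 27.1, 23.3 and 26.8 RPKM in the right legs, against 22.0, 19.4 and 21.8 RPKM in the left legs. Atp6v0e rose under both scalings, while Atp6v0e2 was called higher in C57BL/6 as deposited and lower after rescaling (log2 change 0.48 ± 0.08, adjusted p = 0.00117, and -0.23 ± 0.08 with adjusted p = 0.0447 after rescaling), and was not called in BALB/c (log2 change 0.28 ± 0.13, adjusted p = 0.0983, and -0.23 ± 0.14 with adjusted p = 0.221 after rescaling). Of the summed RPKM of both genes, Atp6v0e accounted for 50.6% ± 0.960 in the right legs, against 33.9% ± 1.49 in the left legs of C57BL/6. In BALB/c Atp6v0e held 58.9% ± 2.21 in the right legs, against 39.7% ± 1.08 in the left legs. All right libraries had a higher share than all left libraries of their strain, and this share does not depend on the scaling. The rescaled call of Atp6v0e2 in C57BL/6 was lost without left 1, left 2, left 3, right 2 or right 3 (adjusted p = 0.0561, 0.129, 0.0899, 0.121 and 0.156), and in BALB/c it was called as deposited without right 2 (adjusted p = 0.0361).

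**Figure D4:**
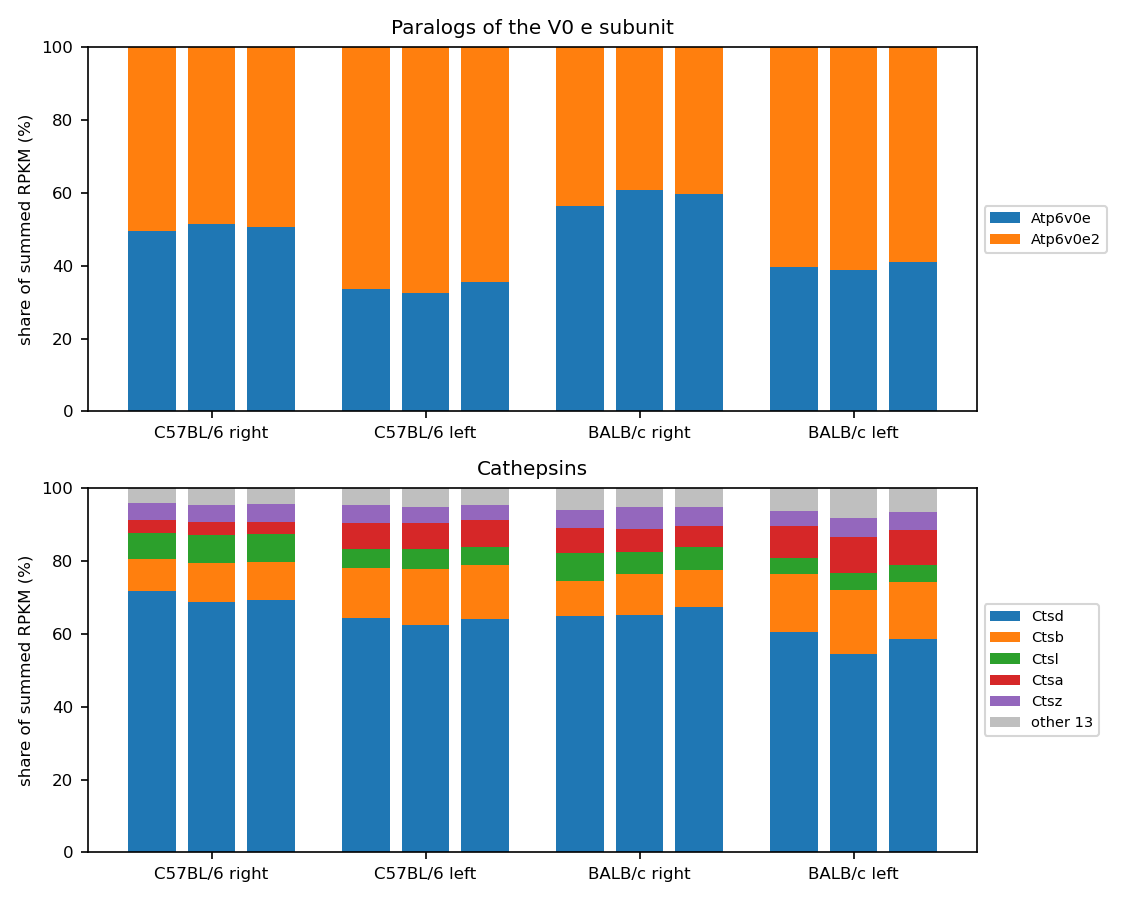
Share of summed RPKM in percent, 1 bar per library. The upper panel divides subunit e between Atp6v0e and Atp6v0e2, and the lower panel divides the cathepsins. Atp6v0e takes 50.6% of subunit e in the right and 33.9% in the left legs of C57BL/6, and Ctsd is the largest cathepsin in every library.

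Subunit a holds the paths by which protons cross the membrane and sends the pump to different membranes. Atp6v0a1 (chromosome 11, 100870755 to 100925031) had 30.6, 24.8 and 27.7 RPKM in the right legs of C57BL/6, against 22.0, 24.9 and 24.5 RPKM in the left legs, and those legs overlapped. In BALB/c Atp6v0a1 had 38.9, 29.5 and 41.5 RPKM in the right legs, against 23.7, 23.1 and 28.6 RPKM in the left legs, without overlap. It was lower in C57BL/6 after rescaling only (log2 change 0.21 ± 0.10, adjusted p = 0.0805, and -0.50 ± 0.10 with adjusted p = 0.00485 after rescaling), and higher in BALB/c as deposited only (log2 change 0.53 ± 0.17, adjusted p = 0.0295, and 0.01 ± 0.15 with adjusted p = 0.965 after rescaling). It was called higher as deposited in C57BL/6 without right 2 (adjusted p = 0.0314), and in BALB/c the call was lost without left 1, left 2, right 1 or right 3 (adjusted p = 0.0878, 0.0804, 0.0865 and 0.105). Atp6v0a2, the form of Golgi and endosomes, had 8.78 ± 0.541 RPKM in the right legs, against 5.25 ± 0.169 RPKM in the left legs of C57BL/6 and 7.21 ± 1.12 RPKM in the right legs, against 5.38 ± 0.864 RPKM in the left legs of BALB/c. Neither rescaled value was called (0.02 in C57BL/6 and -0.09 in BALB/c). In BALB/c it was called as deposited without right 2 (adjusted p = 0.0323). The a3 form of lysosomes and osteoclasts is encoded by Tcirg1, whose name the rule does not match. Tcirg1 had 4.18 ± 0.550 RPKM in the right legs, against 2.36 ± 0.271 RPKM in the left legs of C57BL/6 and 7.01 ± 0.461 RPKM in the right legs, against 3.74 ± 0.369 RPKM in the left legs of BALB/c. It was not called after rescaling (adjusted p = 0.559 in C57BL/6 and 0.0729 in BALB/c).

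The proton-carrying ring is made of subunit c and the related subunit encoded by Atp6v0b. Atp6v0b (chromosome 4, 117556935 to 117559934) had the highest V0 level in the left legs of both strains. Its values were 63.2, 65.3 and 56.9 RPKM in the right legs of C57BL/6, against 44.6, 43.6 and 47.5 RPKM in the left legs. In BALB/c Atp6v0b had 75.7, 109.6 and 84.0 RPKM in the right legs, against 41.9, 36.9 and 47.2 RPKM in the left legs. No overlap was seen as deposited, but after rescaling it was lower in C57BL/6 (log2 change 0.44 ± 0.08, adjusted p = 0.00135, and -0.27 ± 0.07 with adjusted p = 0.0155 after rescaling) and not called in BALB/c (log2 change 1.08 ± 0.17, adjusted p = 0.0014, and 0.56 ± 0.23 with adjusted p = 0.0837 after rescaling). The rescaled call in C57BL/6 was lost without right 3 (adjusted p = 0.0696). Atp6v0c had 12.2 ± 0.901 RPKM in the right legs, against 7.10 ± 0.452 RPKM in the left legs of C57BL/6 and 6.35 ± 0.891 RPKM in the right legs, against 4.26 ± 0.203 RPKM in the left legs of BALB/c. It was called higher in both strains as deposited and not called after rescaling (0.06 in C57BL/6 and 0.04 in BALB/c). In BALB/c the deposited call was lost without left 1, left 2, left 3, right 1 or right 3 (adjusted p = 0.0529, 0.0556, 0.0614, 0.0605 and 0.0826). Reads of Atp6v0c and Atp6v0c-ps2, which overlap on the same strand, cannot be separated, and the pseudogene, with 11.2 ± 0.961 RPKM in the right legs, against 6.66 ± 0.351 RPKM in the left legs of C57BL/6, gave near-equal changes (log2 change 0.71 in C57BL/6 and 0.52 in BALB/c as deposited, the BALB/c call lost without the same 5 libraries).

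Lamp1 and Lamp2, the 2 most abundant proteins of the lysosomal membrane, had unequal changes. Lamp1 (chromosome 8, 13159161 to 13175338) had 149.8, 148 and 145 RPKM in the right legs of C57BL/6, against 138, 140.1 and 135 RPKM in the left legs. In BALB/c Lamp1 had 177, 145 and 184 RPKM in the right legs, against 153, 149 and 151 RPKM in the left legs. The right legs stood just above the left in C57BL/6 and overlapped them in BALB/c. It was not called as deposited in either strain, and it was lower in C57BL/6 after rescaling (log2 change 0.10 ± 0.06, adjusted p = 0.177, and -0.62 ± 0.06 with adjusted p = 0.000161 after rescaling, in C57BL/6, and log2 change 0.15 ± 0.14, adjusted p = 0.406, and -0.37 ± 0.16 with adjusted p = 0.0915 after rescaling, in BALB/c). Lamp2 (chromosome X, 35758226 to 35809637), one form of which takes up proteins in chaperone-mediated autophagy, had 22.8, 26.2 and 23.4 RPKM in the right legs of C57BL/6, against 12.5, 12.3 and 10.5 RPKM in the left legs. In BALB/c Lamp2 had 24.3, 17.1 and 21.8 RPKM in the right legs, against 17.4, 20.5 and 16.2 RPKM in the left legs, and the legs overlapped. It rose in C57BL/6 (log2 change 1.00 ± 0.09, adjusted p = 5.66e-05, and 0.30 ± 0.09 with adjusted p = 0.0228 after rescaling), where the rescaled call was lost without left 3, right 2 or right 3 (adjusted p = 0.0624, 0.0698 and 0.0572), and was not called in BALB/c (log2 change 0.21 ± 0.17, adjusted p = 0.321, and -0.30 ± 0.14 with adjusted p = 0.117 after rescaling). Of the summed RPKM of Lamp1 and Lamp2, Lamp2 made up 14.1% ± 0.915 in the right legs, against 7.90% ± 0.570 in the left legs of C57BL/6. In BALB/c Lamp2 made up 11.1% ± 0.869 in the right legs, against 10.7% ± 1.28 in the left legs. The table lists 1 transcript of Lamp2, so its forms were not separated.

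To compare the strains, the C57BL/6 change was subtracted from the BALB/c change. As deposited, 2 of 31 members had a larger and 3 a smaller change in BALB/c, and 26 were not called, while 1.76% of all tested genes were called larger and 4.33% smaller. After rescaling 2 were larger and 2 smaller (3.71% and 3.49% of all tested genes). Ctsk had a change of 0.21 in BALB/c and 1.83 in C57BL/6 (difference -1.62 ± 0.38, adjusted p = 0.031, and -1.58 ± 0.36 with adjusted p = 0.0263 after rescaling). Lamp2 had a change of 0.21 in BALB/c and 1.00 in C57BL/6 (difference -0.79 ± 0.19, adjusted p = 0.0357, and -0.60 ± 0.16 with adjusted p = 0.0409 after rescaling). Atp6v1b2 had -0.03 in BALB/c and 0.45 in C57BL/6 (difference -0.48 ± 0.11, adjusted p = 0.0328, and -0.29 ± 0.12 with adjusted p = 0.149 after rescaling). Those 3 were not called in BALB/c as deposited, whereas Atp6v1g1 had 2.02 in BALB/c and 0.97 in C57BL/6 (difference 1.06 ± 0.24, adjusted p = 0.0276, and 1.25 ± 0.27 with adjusted p = 0.0213 after rescaling). Ctsc had -0.21 in BALB/c and -1.17 in C57BL/6 (difference 0.96 ± 0.22, adjusted p = 0.0261, and 1.10 ± 0.19 with adjusted p = 0.00997 after rescaling), on different transcripts. Left-leg levels also stood apart for Ctsk, at 5.27 RPKM in BALB/c and 0.574 RPKM in C57BL/6, from tables normalized separately.

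The calls of strain differences were sensitive to single libraries. Over all genes the deposited calls, 249 larger and 613 smaller, also ran from 81 to 505 and from 226 to 1028 as single libraries were left out. The deposited differences ran from -1.91 to -1.35 for Ctsk, -0.90 to -0.65 for Lamp2 and -0.52 to -0.44 for Atp6v1b2. For Atp6v1g1 they ran from 0.92 to 1.23 and for Ctsc from 0.80 to 1.07. The deposited call of Ctsk was lost without C57BL/6 left 1, C57BL/6 left 2, C57BL/6 left 3, C57BL/6 right 2, C57BL/6 right 3, BALB/c left 2, BALB/c left 3 or BALB/c right 3 (adjusted p = 0.0725, 0.0641, 0.0685, 0.0679, 0.0766, 0.0708, 0.0597 and 0.0633). Lamp2 lost it without C57BL/6 left 1, C57BL/6 left 2, C57BL/6 left 3, C57BL/6 right 2, C57BL/6 right 3, BALB/c left 2 or BALB/c right 3 (adjusted p = 0.0607, 0.0692, 0.0925, 0.094, 0.0768, 0.0807 and 0.057). Atp6v1b2 lost it without C57BL/6 left 1, C57BL/6 left 2, C57BL/6 left 3, C57BL/6 right 2, C57BL/6 right 3, BALB/c left 2, BALB/c left 3 or BALB/c right 3 (adjusted p = 0.0798, 0.0882, 0.0656, 0.0878, 0.0897, 0.0648, 0.0702 and 0.0601). For Atp6v1g1 the libraries were C57BL/6 left 1, C57BL/6 left 2, C57BL/6 left 3, C57BL/6 right 2, C57BL/6 right 3, BALB/c left 2 or BALB/c right 3 (adjusted p = 0.0528, 0.0684, 0.072, 0.0723, 0.0762, 0.0586 and 0.0554). For Ctsc they were C57BL/6 left 1, C57BL/6 left 2, C57BL/6 right 2, C57BL/6 right 3, BALB/c left 3 or BALB/c right 3 (adjusted p = 0.0528, 0.0686, 0.0551, 0.0615, 0.0574 and 0.0554). After rescaling Ctsk lost its call without C57BL/6 left 1, C57BL/6 left 2, C57BL/6 left 3, C57BL/6 right 2, C57BL/6 right 3, BALB/c left 2 or BALB/c right 3 (adjusted p = 0.0603, 0.0521, 0.0554, 0.0647, 0.0713, 0.0608 and 0.0546). The rescaled call of Lamp2 was lost without C57BL/6 left 1, C57BL/6 left 2, C57BL/6 left 3, C57BL/6 right 1, C57BL/6 right 2, C57BL/6 right 3, BALB/c left 1, BALB/c left 2 or BALB/c right 3 (adjusted p = 0.0627, 0.0716, 0.101, 0.0509, 0.106, 0.0964, 0.0571, 0.0843 and 0.0807). That of Atp6v1g1 was lost without C57BL/6 left 2, C57BL/6 left 3, C57BL/6 right 2, C57BL/6 right 3 or BALB/c right 3 (adjusted p = 0.0507, 0.0545, 0.0606, 0.0643 and 0.051), and that of Ctsc was kept as each of the 12 libraries was left out in turn. Across the 30 members that pass on their left-leg level, the rescaled changes of the strains had Pearson's r = 0.730 and Spearman's rho = 0.714, and 24 had the same sign, as a description over genes that are not independent replicates.

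**Figure D5:**
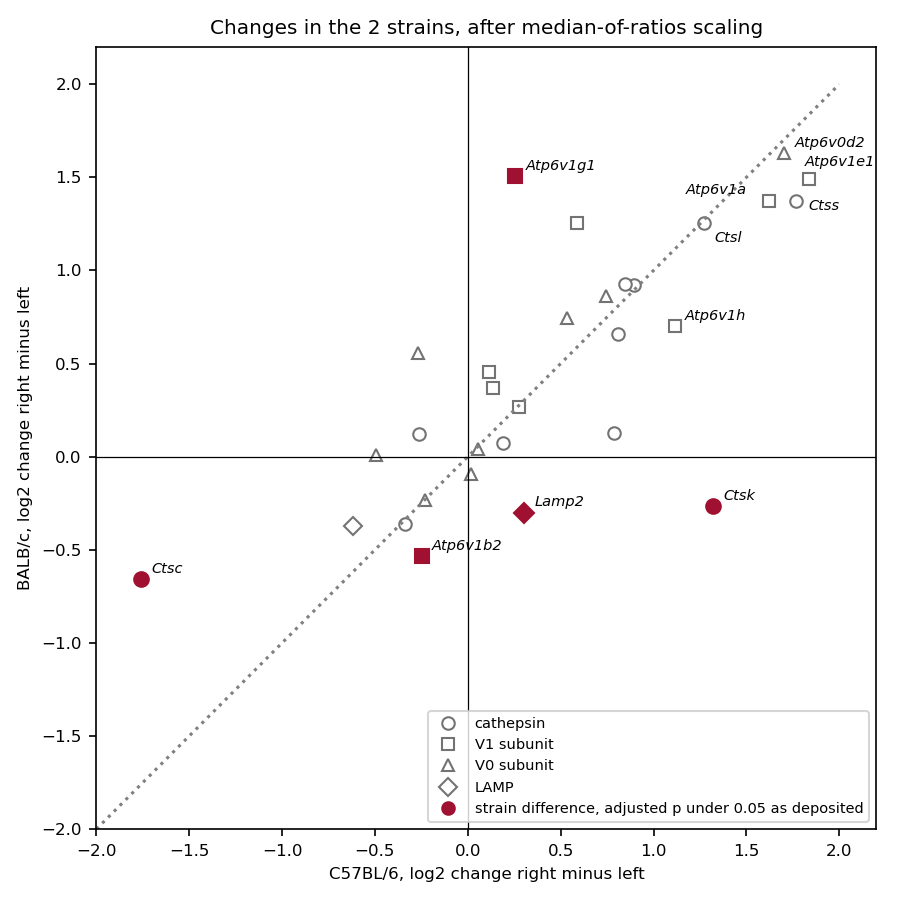
Rescaled log2 change, right minus left, in C57BL/6 (x axis) and BALB/c (y axis) for 30 members. The marker gives the class, the dotted line marks equal changes, and filled red markers had a strain difference with adjusted p under 0.05 as deposited. Ctsk lies at 1.32 and -0.26, far below the line, and Atp6v1g1 at 0.25 and 1.51, above it.

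Other genes of the lysosome, listed by role, are read against all tested genes, of which as deposited 63.6% were higher and 8.56% lower in C57BL/6, and 42.5% higher and 7.67% lower in BALB/c. After rescaling the shares were 28.2% higher and 26.4% lower in C57BL/6, and 21.8% higher and 19.0% lower in BALB/c, and a count near these shares is no result about its list. Of 32 hydrolases outside the cathepsins 27 rose as deposited and 1 fell in C57BL/6, and 15 rose and 0 fell in BALB/c. After rescaling 13 rose and 6 fell in C57BL/6, and 6 rose and 4 fell in BALB/c. Dnase2a, the lysosomal nuclease, had rescaled changes of 3.0 in C57BL/6 and 1.73 in BALB/c, and Galns, a sulfatase of keratan sulfate, of 2.86 in C57BL/6 and 2.17 in BALB/c. After rescaling Ids, a sulfatase of heparan sulfate, fell by 0.93 in C57BL/6 and by 0.97 in BALB/c, and Smpd1, acid sphingomyelinase, and Tpp1, a tripeptidyl peptidase, fell in both strains too. Of 20 other membrane proteins 17 rose and 3 fell in C57BL/6 and 15 rose and 1 fell in BALB/c as deposited. After rescaling 9 rose and 5 fell in C57BL/6, and 6 rose and 3 fell in BALB/c. Laptm5, of blood cell lysosomes, rose by 1.67 in C57BL/6 and 0.91 in BALB/c after rescaling, and Cd63, a tetraspanin, by 0.68 in C57BL/6 and 1.33 in BALB/c. Npc1, the cholesterol exporter, fell by 1.35 in C57BL/6 after rescaling and was not called in BALB/c (0.01). Laptm4b fell by 1.14 in C57BL/6 and by 1.00 in BALB/c after rescaling.

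The partners of the pump and of the cathepsins were counted in the same way. Of 13 accessory and assembly genes of the V-ATPase 9 rose in C57BL/6 and 8 in BALB/c as deposited, with 0 called lower in either strain. After rescaling 3 rose and 4 fell in C57BL/6 and 3 rose and 3 fell in BALB/c. Atp6ap2, the accessory subunit also known as the prorenin receptor, rose by 1.32 in C57BL/6 and 1.30 in BALB/c after rescaling, and Rogdi by 1.18 in C57BL/6 and 1.18 in BALB/c. Oxr1 fell by 0.68 in C57BL/6 and 0.85 in BALB/c, and Wdr7 by 0.51 in C57BL/6 and 0.73 in BALB/c. The rescaled change of Atp6ap1, the other accessory subunit, was 0.03 in C57BL/6 and 0.21 in BALB/c, and neither was called. Of 13 genes listed as inhibitors and processing enzymes of cathepsins 8 were tested. The list was drawn broadly: Serping1 and Hpn, both counted in it, are not established as either. As deposited 6 rose and 0 fell in C57BL/6 and 7 rose and 0 fell in BALB/c, and after rescaling 6 rose and 2 fell in C57BL/6 and 6 rose and 1 fell in BALB/c. Lgmn, the endopeptidase that matures several cathepsins, had 69.4 ± 5.44 RPKM in the right legs, against 9.21 ± 0.651 RPKM in the left legs of C57BL/6 (rescaled log2 change 2.14 ± 0.08, adjusted p = 1.47e-06), and 57.6 ± 8.20 RPKM in the right legs, against 17.2 ± 3.46 RPKM in the left legs of BALB/c (rescaled log2 change 1.21 ± 0.18, adjusted p = 0.00176). Cst6, a secreted inhibitor of cysteine cathepsins and legumain, had 31.0 ± 2.94 RPKM in the right legs, against 2.34 ± 0.448 RPKM in the left legs of C57BL/6 and 9.33 ± 2.87 RPKM in the right legs, against 1.25 ± 0.475 RPKM in the left legs of BALB/c. Serpinb6a, a serpin, had 937 ± 154 RPKM in the right legs, against 165 ± 8.47 RPKM in the left legs of C57BL/6 and 995 ± 101 RPKM in the right legs, against 123 ± 43.6 RPKM in the left legs of BALB/c. Lgmn, Cst6 and Serpinb6a rose in both strains under both scalings. After rescaling Cst3, the secreted cystatin C, fell by 0.46 in C57BL/6 and rose by 0.86 in BALB/c, and Hpn fell in both strains.

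Of 11 genes that sort enzymes to the lysosome 3 rose and 5 fell in C57BL/6 and 2 rose and 1 fell in BALB/c after rescaling. As deposited 7 rose and 1 fell in C57BL/6, and 5 rose and 0 fell in BALB/c. Psap, the precursor of the saposins, fell in C57BL/6 under both scalings and in BALB/c after rescaling (166 ± 3.34 RPKM in the right legs, against 247 ± 6.44 RPKM in the left legs of C57BL/6, and 185 ± 45.4 RPKM in the right legs, against 264 ± 19.0 RPKM in the left legs of BALB/c). Of 18 tested regulators 5 rose and 3 fell in C57BL/6 and 3 rose and 7 fell in BALB/c after rescaling. As deposited 12 rose and 2 fell in C57BL/6, and 9 rose and 3 fell in BALB/c. Tfeb had 26.6 ± 1.36 RPKM in the right legs, against 49.5 ± 3.38 RPKM in the left legs of C57BL/6 and 33.7 ± 3.92 RPKM in the right legs, against 44.2 ± 2.08 RPKM in the left legs of BALB/c. Rragd, a GTPase that brings mTORC1 to the lysosome and is itself a known target of TFEB, had 20.8 ± 1.30 RPKM in the right legs, against 40.0 ± 1.76 RPKM in the left legs of C57BL/6 (rescaled log2 change -1.64 ± 0.08, adjusted p = 3.59e-06), and 18.4 ± 3.97 RPKM in the right legs, against 34.3 ± 3.17 RPKM in the left legs of BALB/c (rescaled log2 change -1.41 ± 0.18, adjusted p = 0.000794). Mtor, the kinase of that complex, rose in C57BL/6 (rescaled log2 change 1.20 ± 0.10, adjusted p = 4.28e-05) and was not called in BALB/c after rescaling (0.33).

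Of the 15 matched genes below the level limit, 7 had no reads and 8 had at most 26 reads in any library. Atp6v1b1, Atp6v1g3, Ctsg, Ctsj, Ctsm, Ctsq and Ctsr had no read in any library, where 3 reads per library would correspond to between 0.0791 and 0.167 RPKM. Ctsg encodes a neutrophil protease, and Ctsj, Ctsm, Ctsq and Ctsr belong to the placental cathepsins of rodents. Atp6v0a4, Atp6v1c2, Atp6v1e2, Atp6v1fnb, Ctse, Ctsw, Lamp3 and Lamp5 had group means of at most 0.374 RPKM. Ctsw, of cytotoxic lymphocytes, had 0.221 RPKM in the right and 0.0863 RPKM in the left legs of C57BL/6 and 0.347 RPKM in the right and 0.0763 RPKM in the left legs of BALB/c. Of these 8 genes 2 were tested in C57BL/6, Ctsw and Atp6v1c2, and neither was called. In BALB/c 4 were tested, and Ctsw was called higher under both scalings (log2 change 0.55, adjusted p = 0.00969, and 0.41 with adjusted p = 0.0496 after rescaling). Its rescaled call was lost without any 1 of the 6 libraries (adjusted p = 0.0517 to 0.126). Ctse, an intracellular aspartic protease, was called higher there as deposited (log2 change 0.46, adjusted p = 0.0213), a call lost without left 2, left 3, right 1 or right 2 (adjusted p = 0.0543, 0.0727, 0.0683 and 0.0528). Atp6v0a4, the kidney form of subunit a, was called lower there after rescaling (log2 change -0.53, adjusted p = 0.0108), on 11, 9 and 14 reads in the right legs, against 16, 25 and 26 reads in the left legs. Of 5 endothelial markers 5 fell in C57BL/6 and 4 in BALB/c after rescaling (26.4% and 19.0% of all tested genes). Of 5 Schwann cell markers Ngfr rose in each strain and S100b fell in BALB/c after rescaling, and of 8 T and NK cell markers Nkg7 rose in C57BL/6. Reads were counted without strand, and Ctsa (with Neurl2 and Pltp), Ctsb (Fdft1), Ctsz (Nelfcd), Atp6v0a1 (Mir6928), Atp6v1b2 (Slc18a1) and Atp6v1g2 (Nfkbil1) overlap other listed genes, so their values may hold reads of these.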

How the data were processed

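Per the file headers, the authors made RPKM values with HOMER's analyzeRepeats on its mm9 annotation, counting exon reads of both strands, keeping 1 transcript per gene and scaling by transcript length and library. They deposited 1 table per strain, whose column names say FPKM while the recorded command asks for RPKM. Per the submitters' processing notes, HISAT2, HOMER and DESeq2 were used, with no versions or roles, and the builds are GRCm38 and mm10. The build of the alignment is otherwise not given in the sources used here. The code in a sample's description identified its column, and 0 sample columns went unused. The tables were normalized separately, so levels were not tested across them.

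For each table, the test on log2(RPKM + 0.5) took genes whose mean over its 6 libraries reached 0.1 RPKM, with limma 3.58.1 in R 4.3.3 (eBayes with a trend, two-sided, Benjamini-Hochberg adjustment): 14551 genes in C57BL/6, 14819 in BALB/c and 14165 for the difference between strains, a contrast over all 12 libraries. Rescaled values were divided by median-of-ratios factors, 0.783 to 1.32 in C57BL/6 and 0.766 to 1.26 in BALB/c. RPKM times transcript length and a scaling total came out whole within 0.1 read for 99.66% to 99.79% of values, with 14826934 to 17323385 reads in genes. On these reads limma-voom called 9366 genes higher and 1261 lower in C57BL/6, and 6371 higher and 1210 lower in BALB/c. A floor of 3 reads per library and an exact 95% interval of a ratio cover counting error only.

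The members, the gene lists and the tests were chosen with earlier results of these data known. Every described member is named. Values of every library are given for the largest called rise and fall of each class and strain, the highest left-leg level and each called strain difference, and also for Ctsl, Atp6v1a, Atp6v0e and Atp6v0e2, added after their values were seen. Of the other lists up to 2 called genes per direction and strain are named, and Tcirg1, Tfeb, Psap, Rragd, Mtor, Lgmn, Cst3, Hpn, Smpd1, Npc1 and Atp6ap1 were chosen after their values were seen where they fall outside that rule. The alternatives were other pseudocounts, filters, scalings and models, the replicate number as a block, and each library left out. Leaving a library out under median-of-ratios scaling was added after seeing the data. Values of some single marker genes are not reported here.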

Additional observations from a re-analysis of the deposited data

Results flagged for a closer look

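In 5 members the change after denervation differed between the strains by a test of the difference itself (limma, Benjamini-Hochberg adjustment over 14165 genes). Subtracting the C57BL/6 change from the BALB/c change gave -1.6165 for Ctsk, -0.7909 for Lamp2 and -0.4779 for Atp6v1b2, and 1.0570 for Atp6v1g1 and 0.9569 for Ctsc, as deposited on the log2(RPKM + 0.5) scale. After rescaling Atp6v1b2 was no longer called (-0.29, adjusted p = 0.149), and the other 4 were, of which Lamp2 lost the rescaled call without 9 of 12 single libraries (adjusted p up to 0.106), Ctsk without 7 (up to 0.0713), Atp6v1g1 without 5 (up to 0.0643) and Ctsc without 0 (up to 0.0298). Each of the 5 deposited calls was lost when certain single libraries were left out, 6 to 8 of 12, with adjusted p up to 0.0897 for Atp6v1b2, 0.0762 for Atp6v1g1, 0.0686 for Ctsc, 0.0766 for Ctsk and 0.0940 for Lamp2. Ctsc was counted on different transcripts in the 2 tables, and its part in the difference was not tested.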

How the results depend on the processing

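The counts of members called as deposited depend on the scaling. In C57BL/6, 27 members were higher as deposited, 16 after median-of-ratios scaling, 17 after quantile normalization and 15 with median-of-ratios scaling and the replicate block, and 1, 8, 5 and 7 were lower. After median-of-ratios scaling the 8 lower calls became 5 without right library 3. In BALB/c, 23 were higher as deposited, 14 after median-of-ratios scaling, 15 after scaling to a common sum, 13 after quantile normalization and 13 with median-of-ratios scaling and the block, and 0, 2, 0, 3 and 2 were lower. Of the strain differences, the 2 members with a larger change in BALB/c became 0 under a common sum and 0 to 2 when single libraries were left out. The 3 with a smaller change became 1 with the replicate block, with or without median-of-ratios scaling, and 0 to 4 when single libraries were left out. The cause was not tested.

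The share of Ctsl among cathepsins, right minus left, was 2.30 percentage points in C57BL/6 and 2.10 in BALB/c, and 10.6 and 8.68 without Ctsd in the denominator, as a smaller denominator gives. The share of Atp6v0a1 in subunit a in BALB/c was 1.85 points higher in the right legs, -0.84 with Tcirg1 counted, and 0.026 without BALB/c left library 2. In C57BL/6 its right minus left value was -6.21 points, and -7.83 with Tcirg1 counted. All right libraries of C57BL/6 had a lower share than all left libraries either way.

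Of 1229 further values of single genes 1051 kept direction and call, 118 lost the call, 11 gained it and 49 changed sign. The sign changes were these. After median-of-ratios scaling, with and without the block, C57BL/6 values were -0.50 for Atp6v0a1, -0.27 for Atp6v0b, -0.23 for Atp6v0e2, -0.25 for Atp6v1b2, -0.26 for Ctsa, -0.34 for Ctso and -0.62 for Lamp1. BALB/c values were -0.094 for Atp6v0a2, -0.23 for Atp6v0e2, -0.26 for Ctsk, -0.36 for Ctso, -0.37 for Lamp1 and -0.30 for Lamp2. After quantile normalization C57BL/6 values were -0.41 for Atp6v0a1, -0.001 for Atp6v0a2, -0.17 for Atp6v0b, -0.13 for Atp6v0e2, -0.20 for Atp6v1b2, -0.17 for Ctsa, -0.44 for Ctso and -0.56 for Lamp1. BALB/c values were -0.10 for Atp6v0a1, -0.13 for Atp6v0a2, -0.35 for Atp6v0e2, -0.027 for Ctsa, -0.10 for Ctsb, -0.31 for Ctsk, -0.31 for Ctso, -0.54 for Lamp1 and -0.41 for Lamp2. Under a common sum BALB/c values were -0.13 for Ctso, -0.065 for Lamp1 and 0.00 for Lamp2. With single BALB/c libraries left out, Atp6v1b2 ran from -0.068 to 0.016, above 0 without right library 2, and Ctso from -0.058 to 0.131, below 0 without left library 1 (-0.023) or right library 3 (-0.058).

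Same-numbered right and left libraries deviated together with correlations of 0.182, 0.104 and 0.007 in C57BL/6 and 0.010, 0.066 and 0.239 in BALB/c. Between different numbers the correlations ran from -0.166 to 0.098 in C57BL/6 and from -0.192 to 0.111 in BALB/c. The numbers were not taken to pair the legs because no label says that equal numbers share a mouse. These correlations cannot settle whether they do. Right library 3 of C57BL/6 correlated best with left library 2 (0.098), and right library 1 of BALB/c likewise with left library 2 (0.111). The other right libraries correlated best with the left library of their own number. The deposited values do not show which scaling is right. Members below the level limit had at most 26 reads in a library, which limits their precision.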
